A study of Mus musculus with 18 samples.

Results

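Lung endothelial cells (ECs) of 18-month-old mice given sham treatment (Aged Sham 1, 2 and 3) were compared with lung ECs of 2-month-old mice given bleomycin (Young Bleo 1, 2 and 3). These are 6 of the 18 ATAC-seq peak lists of the series, and they were grouped because the names of their lists carry the same lane code, L7. The other Aged Sham list has lane code 6 and the other Young Bleo list has lane code 8, whereas all 5 Young Sham lists have code 8 and all 5 Aged Bleo lists have code 6. Each list came from 1 mouse. All mice were of the FVB strain and carried a Col1α1-GFP reporter, which marks collagen-producing fibroblasts, and the study used females and males. Young Bleo mice received bleomycin at 1 U/kg into the trachea and Aged Sham mice received saline in its place, and the lungs of both were taken at day 30. ECs were sorted as CD31-positive cells without CD45 (leukocytes), CD326 (epithelial cells) or GFP. Because age and treatment change together between these groups, their effects cannot be told apart here, whereas the lane code is equal on both sides.

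Endothelial cells line every blood vessel, and in the lung alveolus they fall into general capillary cells, which serve as a source of new capillary cells after injury, and aerocytes, which are specialised for gas exchange. Arteries and veins have ECs of their own, marked by genes such as Gja4, Sox17 and Unc5b in arteries and Nr2f2 in veins. All ECs rest on a basement membrane of type IV collagen, laminin and perlecan, and their identity is maintained by transcription factors of the ETS, SOX, GATA and forkhead families. Bleomycin damages the alveolar wall and causes fibrosis. In ATAC-seq the transposase Tn5 cuts open chromatin, so that fragments pile up in peaks at active promoters and at regulatory regions between and within genes.

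The sequences of 8 regions whose peaks differed in strength are shown here, since the comparison below turns on regions of this kind. Each is the mm10 reference on the plus strand, 200 bases around the summit of the region. The mm10 genome is that of another strain than the FVB mice, so the sequences do not show alleles of these animals. Capitals mark matches on either strand to 9 motifs. These are CAGGAAG for the ETS family, TGANTCA for AP-1, where N is any base, and TGTTTAC for forkhead factors. The letters for SOX factors are ACAATGG, those for GATA factors AGATAAG and those for TEAD factors GGAATGT. For KLF factors CCACACCC was searched, for NF-kB GGGANTTCC and for the insulator factor CTCF AGGGGGC. A match is a string of letters and not evidence of a bound factor. The first pair holds the intronic or intergenic regions stronger in Young Bleo with the smallest p outside repeated sequence, in an intron of the noncoding gene A930006I01Rik (chr2:103343754-103343953) and in an intron of the imprinted gene Peg3 (chr7:6728553-6728752).
A930006I01Rik: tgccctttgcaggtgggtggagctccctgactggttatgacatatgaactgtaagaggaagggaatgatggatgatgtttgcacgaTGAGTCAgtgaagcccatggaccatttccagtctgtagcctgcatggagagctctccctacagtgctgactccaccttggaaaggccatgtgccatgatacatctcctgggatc
Peg3: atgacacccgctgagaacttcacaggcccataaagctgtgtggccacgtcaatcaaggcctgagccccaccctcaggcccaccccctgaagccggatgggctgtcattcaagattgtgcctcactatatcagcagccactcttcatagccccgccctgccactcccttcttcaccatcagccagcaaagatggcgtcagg
The next pair was stronger in Aged Sham, upstream of Ikzf2 (chr1:69687377-69687576), which encodes a zinc finger transcription factor, and in an intergenic region whose nearest gene is Akr1e1, an aldo-keto reductase (chr13:4771542-4771741).
Ikzf2: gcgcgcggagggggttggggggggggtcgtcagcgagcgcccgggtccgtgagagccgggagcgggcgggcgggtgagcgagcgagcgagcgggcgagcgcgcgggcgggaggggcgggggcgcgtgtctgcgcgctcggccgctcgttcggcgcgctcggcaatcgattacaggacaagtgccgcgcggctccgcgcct
Akr1e1: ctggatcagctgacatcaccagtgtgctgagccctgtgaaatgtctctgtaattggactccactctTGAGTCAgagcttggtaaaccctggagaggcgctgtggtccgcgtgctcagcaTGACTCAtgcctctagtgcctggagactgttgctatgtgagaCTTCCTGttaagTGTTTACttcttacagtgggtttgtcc
The A930006I01Rik window holds an AP-1 match, the Akr1e1 window holds 2 AP-1 matches, an ETS match and a forkhead match, and the Peg3 and Ikzf2 windows hold none of these letters. The last 4 windows are the leading intronic or intergenic regions of 4 gene groups described below. Col4a2 (chr8:11308622-11308821) stands for the basement membrane and Fbln5 (chr12:101807479-101807678) for arteries, both stronger in Young Bleo.
Col4a2: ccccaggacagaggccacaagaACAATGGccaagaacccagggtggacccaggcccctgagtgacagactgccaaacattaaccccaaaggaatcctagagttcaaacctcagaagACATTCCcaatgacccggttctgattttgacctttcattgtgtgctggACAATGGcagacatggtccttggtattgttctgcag
Fbln5: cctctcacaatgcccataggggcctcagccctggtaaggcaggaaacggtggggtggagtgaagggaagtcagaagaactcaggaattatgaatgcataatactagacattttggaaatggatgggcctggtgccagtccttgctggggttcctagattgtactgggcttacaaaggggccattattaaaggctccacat
Chst1 (chr2:92678316-92678515) stands for aerocytes and Angpt1 (chr15:42683854-42684053) for angiopoietin signalling, both stronger in Aged Sham.
Chst1: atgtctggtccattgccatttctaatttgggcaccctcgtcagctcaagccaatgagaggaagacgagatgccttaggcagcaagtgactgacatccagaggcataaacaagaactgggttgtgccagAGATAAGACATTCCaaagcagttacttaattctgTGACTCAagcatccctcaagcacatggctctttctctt
Angpt1: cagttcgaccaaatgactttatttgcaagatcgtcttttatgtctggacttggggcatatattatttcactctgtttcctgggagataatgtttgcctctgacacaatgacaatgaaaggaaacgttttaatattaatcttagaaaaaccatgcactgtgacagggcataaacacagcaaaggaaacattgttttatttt
The Col4a2 window holds 2 SOX matches and a TEAD match, the Chst1 window holds a GATA match that adjoins a TEAD match, and an AP-1 match, and the Fbln5 and Angpt1 windows hold none.

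The libraries of the groups differed in depth, as far as the lists show it. The lists hold no read totals, so depth was measured as background coverage, the lowest number of fragments that the peak caller expected at a summit of that list. It was 1.02, 1.16 and 1.02 fragments in Aged Sham 1, 2 and 3 and 1.68, 1.5 and 1.68 in Young Bleo 1, 2 and 3, so that every Young Bleo library lay above every Aged Sham library. Promoter peaks checked the sort. Of 16 genes that define ECs, such as Cdh5 and Pecam1, 14 to 15 had a promoter peak in an Aged Sham list and 15 to 16 in a Young Bleo list. None of 18 leukocyte genes, Ptprc (CD45) included, and none of 5 mesothelial genes had a promoter peak in any of the 6 lists. Of 16 epithelial genes 3 to 4 had one, with surfactant genes Sftpc and Sftpb at 0. The epithelial genes with a promoter peak in any of the 6 lists were Epcam, which encodes CD326, Hopx, Foxj1 and Etv5. Of 16 fibroblast and mural genes 2 to 3 had one, with Col1a1, Col1a2 and Pdgfrb at 0 and peaks at Pdgfra, Myh11 and Cthrc1. Of 8 lymphatic endothelial genes 2 to 3 had one in Aged Sham and 4 to 5 in Young Bleo. Their promoters held 0.00505% to 0.00554% of the summit fragments in Aged Sham and 0.00743% to 0.00836% in Young Bleo, and the part of lymphatic ECs in the results was not tested. The promoters of the Y-linked genes Ddx3y, Uty and Eif2s3y carried peaks in all 18 lists, and each list held 37 to 69 peaks on the Y chromosome. The study names females and males, but the labels give no sex for single mice, so no list can be named as female.

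More of the genome was called open in Young Bleo. The Aged Sham lists held 26148, 32220 and 25793 nuclear peaks and the Young Bleo lists 34086, 39310 and 39420, so the groups did not overlap, although Aged Sham 2 came close to Young Bleo 1. The means were 28054 ± 3613 and 37605 ± 3048 peaks (SD, n = 3 mice each), a ratio of 1.34 (exact permutation test, two-sided p = 0.1, the smallest that 3 against 3 mice allow). Peaks covered 11.0, 12.9 and 10.7 Mb in Aged Sham and 14.4, 16.9 and 16.5 Mb in Young Bleo (exact permutation p = 0.1). Background coverage separated the same lists in the same direction (means 1.07 ± 0.0828 and 1.62 ± 0.105 fragments, SD, n = 3, exact permutation p = 0.1), and its part in the number of peaks was not tested.

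**Figure D1:**
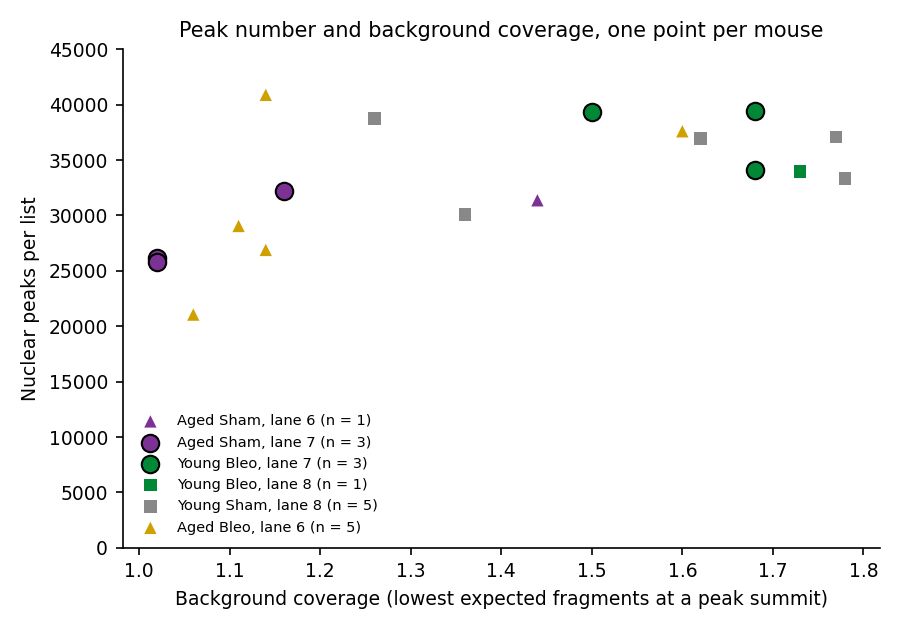
Number of nuclear peaks (vertical axis) against background coverage in fragments (horizontal axis) for all 18 lists, with 1 point per mouse, colours for the groups, shapes for the lane codes and large outlined circles for the 6 compared lists. The 3 Aged Sham lists of lane code 7 lie at the lower left with 25793 to 32220 peaks, and the 3 Young Bleo lists of that lane lie at the upper right with 34086 to 39420 peaks.

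At equal peak number, lists of the same group resembled each other more than lists of different groups. To take the unequal number of peaks out, only the 21050 peaks with the highest -log10 p in each list were used, the number in the smallest of the 18 lists. Pairs of Aged Sham lists then shared a fraction of 0.781 to 0.794 of the regions called in either, pairs of Young Bleo lists shared 0.826 to 0.834, and pairs from different groups shared 0.723 to 0.762. Each pair within a group thus shared more than any pair between groups, by 0.0642 on average (exact permutation test over the lists, p = 0.1, the smallest possible). With all peaks the mean difference was 0.115, but the ranges overlapped, since pairs of Aged Sham lists shared 0.721 to 0.777 and pairs from different groups 0.601 to 0.733.

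Peaks of all 18 lists were merged into 47338 regions with a peak in at least 2 lists, and a region was called separated when all 3 lists of one group and none of the other had a peak in it. With all peaks, 3085 regions (6.52%) had peaks in Young Bleo alone and 160 (0.338%) in Aged Sham alone, among them 5 of the 12 regions nearest to Tek, the angiopoietin receptor, 5 of the 18 nearest to Tjp1, which encodes a tight junction protein, and 6 of the 18 nearest to Fat4, an atypical cadherin, all in Young Bleo. At equal peak number 610 regions (1.29%) were separated in Young Bleo and 501 (1.06%) in Aged Sham, and none of the 5 Tek or 5 Tjp1 regions was among them. Of the 47338 regions, 129 (0.273%) were separated in Young Bleo under both counts, with all peaks and at equal number, and 30 (0.0634%) in Aged Sham. No test of a single region can pass with 3 against 3 lists, since Fisher's exact test cannot go below 0.1 there, so these regions are a description. Counts rose when a list was left out, because fewer lists then had to meet the rule. Without Aged Sham 2 they were 5662 and 246 with all peaks and 1049 and 889 at equal number, and without Young Bleo 1 they were 5324 and 186 with all peaks. For Aged Sham they were 346 and 791 without Aged Sham 1, 291 with all peaks without Aged Sham 3 and 262 with all peaks without Young Bleo 3.

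The 129 Young Bleo regions separated under both counts included 2 introns of Hspg2, the gene of perlecan, at 9.71 kb (chr4:137478311-137478707) and 20.3 kb (chr4:137488853-137489359) from its start. The summit of the second held 32, 65 and 58 fragments in Young Bleo 1, 2 and 3, while no Aged Sham list had a peak there. A Col4a1 region within the neighbouring gene Col4a2 (chr8:11367497-11368060) held 26, 52 and 33 fragments in Young Bleo. The same set held a region 46.9 kb from the start of Sox17, an arterial transcription factor (chr1:4543973-4544510). Another lay 111 kb from the start of Edn1, which encodes the vasoconstrictor endothelin (chr13:42412600-42413069). Introns of Tgfbr2, the type II TGF-beta receptor, and Maml2, a Notch coactivator, were in this set too. So were regions near Fabp4 (chr3:10213648-10214116) and Pparg (chr6:115411403-115411816), a fatty acid carrier and the nuclear receptor of lipid storage. The Fabp4 region held 44, 40 and 47 fragments in Young Bleo 1, 2 and 3, and it ranked ninth of the 129 by peak strength. In Aged Sham a listed gene had 1 such region. A stretch upstream of Sema3c, a general capillary semaphorin (chr5:17556096-17556592), held 17, 19 and 16 fragments in Aged Sham 1, 2 and 3 and had no peak in Young Bleo. The leading Aged Sham region lay near Prr9 (chr3:92120273-92120795), with 73, 90 and 42 fragments in the Aged Sham lists. In the fourth lists, which have other lane codes, Prr9 had 83 fragments in Aged Sham 4 and no peak in Young Bleo 4, and the second Hspg2 intron had no peak and 41 fragments. Others stood close together there, with 21 and 24 fragments at Fabp4, 18 and 18 at Col4a1, 15 and 19 at Edn1, 14 and 16 at Sox17 and 17 and 13 at Pparg. The strongest Young Bleo region by rank lay 1197 kb from the start of Lrrc4c, its nearest gene. It consisted to 58.8% of repeated sequence with 4 genome copies, and its 903, 917 and 927 fragments are uncertain.

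Peak strength could be compared in the 20690 regions with a peak in all 6 lists. The value used is the number of fragments at the summit, solved from the deposited fold enrichment and -log10 p, and divided by the median of these regions in the same list, which was 40, 56 and 40 fragments in Aged Sham 1, 2 and 3 and 60, 69 and 75 in Young Bleo 1, 2 and 3. A region lost in either group is not tested, and 1% of the tested regions lay below a ratio of 0.196 to 0.25 in Aged Sham and of 0.217 to 0.233 in Young Bleo. Tested with limma on the log2 scale, 1891 regions (9.14%) were stronger in Young Bleo and 2429 (11.7%) in Aged Sham at an adjusted p under 0.05. Most differences were modest, with a median size of 0.71 on the log2 scale in Young Bleo and 0.60 in Aged Sham, and 277 and 253 regions reached 1 or more. Of the 4320 regions called, 43.8% were stronger in Young Bleo. That split rests on dividing by the median, since without it 10984 regions were stronger in Young Bleo and 93 in Aged Sham (99.2%), all regions being shifted by a median of 0.59. With the deposited fold enrichment in place of fragments, and also without centring, the counts were 137 and 31 (81.5%), and with percentiles of fold enrichment, which also take in regions without a peak in some lists, they were 6045 and 309 (95.1%). Directions below are therefore relative to the median region of each list. Without that division, all 130 named regions stronger in Young Bleo stayed called in that direction. That is no test of them, since every region then shifts towards Young Bleo. Of the 87 stronger in Aged Sham, 18 stayed called and 30 changed sign. Without Young Bleo 1, 2 or 3 the counts were 1093, 954 and 1149 in Young Bleo and 1532, 1374 and 1818 in Aged Sham.

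**Figure D2:**
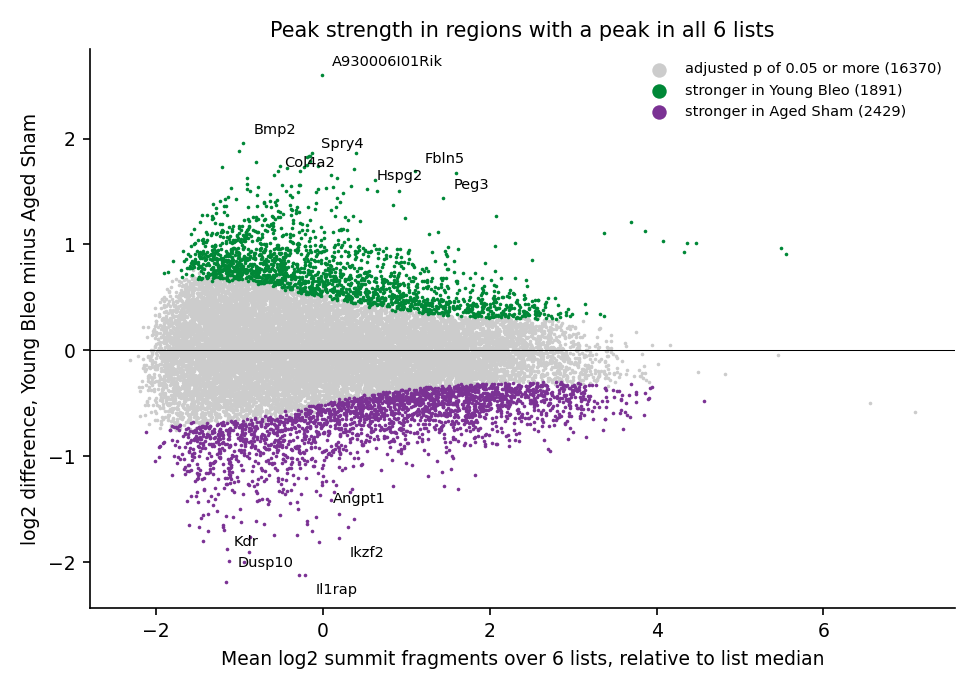
Difference in peak strength between Young Bleo and Aged Sham (vertical axis, log2) against the mean strength over the 6 lists relative to the list median (horizontal axis, log2), with 1 point per region. The 1891 green points were stronger in Young Bleo and the 2429 purple points in Aged Sham at a limma adjusted p under 0.05, and the gene names mark the regions nearest to those genes, A930006I01Rik being the highest point at 2.60.

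Distal regions and promoters moved in different shares. Of 5115 tested intergenic regions, 14.8% were stronger in Young Bleo and 8.19% in Aged Sham, and of 5164 intronic regions 11.1% and 8.79%. Of 8453 promoters, 5.42% were stronger in Young Bleo and 15.5% in Aged Sham. Promoters thus made up 24.2% of the regions stronger in Young Bleo and 53.9% of those stronger in Aged Sham, against 40.9% of all tested. GC content moved with the call, with medians of 54.5% and 61.5% against 59.5% of all tested. Centring promoters and other regions separately left 1371 and 1926 calls, all 2924 calls shared with the first fit kept their sign, and centring on GC content left 1670 and 2134. Both were chosen after seeing the data, and the part of GC content in the promoter share was not tested beyond this.

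The regions with the smallest p in Young Bleo lay in introns and between genes. In the intron of A930006I01Rik the summit held 13, 32 and 14 fragments in Aged Sham 1, 2 and 3 and 146, 164 and 189 in Young Bleo 1, 2 and 3. Relative to the list median this was 0.325, 0.571 and 0.35 against 2.43, 2.38 and 2.52, so the groups were far apart (log2 difference 2.60 ± 0.20 SE, limma adjusted p = 2.41e-10). Egln3, a prolyl hydroxylase that is induced by hypoxia and acts on HIF proteins, had 2 such introns. At the first (chr12:54191888-54192385) the ratios were 0.65, 0.911 and 0.55 in Aged Sham and 2.52, 2.67 and 2.35 in Young Bleo, with differences of 1.87 ± 0.17 and, at the second, 1.71 ± 0.17. Slc1a4, an amino acid transporter, had an upstream region with a difference of 1.83 ± 0.19. Sox5, a SOX transcription factor, had an intronic region with a difference of 1.86 ± 0.20. At the Peg3 region the ratios were 1.67, 1.41 and 1.9 in Aged Sham and 4.75, 4.26 and 4.45 in Young Bleo (log2 difference 1.44 ± 0.13, adjusted p = 3.22e-09). Peg3 is expressed from the paternal copy alone. Of the 10 regions with the smallest p in this direction, the region near Mir6356 consisted to 70.6% of repeated sequence.

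In Aged Sham the leading regions included promoters of Rai2 and Cadm2 and regions near Il1rap, the shared co-receptor of the IL-1 family, Gprc5a, an orphan receptor, Ikzf2 and Fpr2, a formyl peptide receptor. The Il1rap intron (chr16:26597111-26597738) had ratios of 1.95, 1.27 and 2.37 in Aged Sham and 0.533, 0.333 and 0.4 in Young Bleo, a log2 difference of -2.12 ± 0.22 (adjusted p = 7.67e-08). The Ikzf2 region had ratios of 2.07, 2.16 and 2.1 against 0.717, 0.507 and 0.653 (-1.77 ± 0.18, adjusted p = 3.01e-08). The Aged Sham lists were close together at Ikzf2 and wider apart at Il1rap, and neither region overlapped between groups. The Gprc5a region differed by -1.81 ± 0.19, the Rai2 promoter by -1.67 ± 0.17, the Fpr2 region by -1.59 ± 0.18 and the Cadm2 promoter by -1.31 ± 0.14. In the same set, a region in an intron of Myo3a near Gad2 consisted to 82.4% of repeated sequence.

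Basement membrane genes were called mostly in Young Bleo. Of 32 tested regions nearest to 15 of these 16 genes, 8 (25%, against 9.14% of all tested regions) were stronger in Young Bleo, at 7 genes, and 1 in Aged Sham. The median log2 difference was 0.30 against -0.01 over all tested regions. Hspg2 and Col4a1 are also among the genes that the study sets beside its ATAC-seq data. Their part in this share is no independent evidence, because those genes were chosen on these samples. The Hspg2 promoter (chr4:137468371-137469134) had 27, 56 and 36 fragments in Aged Sham 1, 2 and 3 and 126, 184 and 194 in Young Bleo 1, 2 and 3. Its ratios of 0.675, 1 and 0.9 were all below the Young Bleo ratios of 2.1, 2.67 and 2.59 (log2 difference 1.53 ± 0.16, limma adjusted p = 1.06e-07). Col4a1 and Col4a2 encode the type IV collagen chains and lie head to head. The region 4054 bases from the Col4a2 start (chr8:11308483-11309019), which lies in an intron of Col4a1, had ratios of 0.3, 0.536 and 0.325 in Aged Sham and 1.12, 1.39 and 1.05 in Young Bleo (1.66 ± 0.24, adjusted p = 8.3e-06). The Col4a1 promoter (chr8:11312567-11313075) had ratios of 0.325, 0.339 and 0.35 against 0.633, 0.899 and 0.787 (1.18 ± 0.24, adjusted p = 0.000564), and a Col4a1 region 82.1 kb away within Col4a2 differed by 1.56 ± 0.27. In that last region Aged Sham 2 stood at 0.804, above the 0.275 and 0.325 of Aged Sham 1 and 3 and below all Young Bleo lists. The promoter of Fn1, fibronectin, differed by 1.02 ± 0.24, an intron of Lama5, a laminin chain, by 0.54 ± 0.20, and the promoter of Agrn, agrin, by 0.38 ± 0.13. Col15a1, which encodes a collagen at the basement membrane zone, had an upstream region stronger in Young Bleo (0.86 ± 0.24) and another stronger in Aged Sham (-0.71 ± 0.20). The promoters of the fibroblast collagen genes Col1a1, Col1a2 and Col3a1 carried no peak in any of the 6 lists.

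Arterial markers had the highest share of calls in Young Bleo among the 27 gene lists. Of 39 tested regions of 13 of the 16 genes, 12 (30.8%, against 9.14% of all tested) were stronger in Young Bleo, at 8 genes. In Aged Sham 1 (2.56%, against 11.7%) was stronger, and the median was 0.27. The intron of Fbln5, which encodes an elastic fibre protein of the vessel wall (chr12:101807311-101807956), had ratios of 1.18, 2.21 and 0.65 in Aged Sham 1, 2 and 3 and 3.53, 4.19 and 3.87 in Young Bleo 1, 2 and 3. Aged Sham 1 to 3 spread widely there, but all lay below Young Bleo 1 to 3 (log2 difference 1.69 ± 0.22, limma adjusted p = 1.77e-06). The fourth lists, which have other lane codes, held 117 fragments in Aged Sham 4 and 122 in Young Bleo 4. Unc5b, a netrin receptor of arterial and tip cells, had 2 introns with differences of 1.13 ± 0.22 and 1.12 ± 0.25. The promoter of Jag2, a Notch ligand, differed by 1.00 ± 0.20, and that of Gja4, an arterial gap junction protein, by 0.62 ± 0.13. Sox17 had 3 stronger regions, with differences of 0.66 to 0.71. The promoter of Edn1 differed by 0.52 ± 0.16, with Young Bleo 3 at 1.79 below Aged Sham 2 at 1.93, so that the groups overlapped. The arterial region stronger in Aged Sham was the promoter of Hey2, a Notch-induced repressor, with ratios of 11.4, 8.59 and 9.5 in Aged Sham and 6.62, 5.94 and 6.49 in Young Bleo (-0.62 ± 0.11, and -0.03 without the division by list medians). Of the venous and large vessel list, 2 of 18 regions (11.1%) were stronger in each direction, close to the shares of all tested regions. The promoter of Ephb4, a receptor of venous ECs, differed by 0.39 ± 0.12. An intron close to the start of Nr2f2, the venous fate factor, differed by -0.44 ± 0.11 (0.16 without the division by list medians).

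Genes of endothelial identity and their regulators were called more often in Young Bleo than in Aged Sham. Of 64 tested regions of the 16 identity genes, 10 (15.6%, against 9.14% of all tested) were stronger in Young Bleo and 2 (3.12%, against 11.7%) in Aged Sham, with a median of 0.28. The latter were the Kdr intron described with the aerocyte genes, which had the widest difference of the list (-1.67 ± 0.28), and a region upstream of Eng, a TGF-beta co-receptor (-0.53 ± 0.18), where the groups overlapped. Cd34, a surface sialomucin, had an upstream region with ratios of 0.475, 0.339 and 0.45 in Aged Sham and 0.933, 0.87 and 0.827 in Young Bleo (1.07 ± 0.23, limma adjusted p = 0.00101). Egfl7, a secreted EC factor, had 3 stronger regions (0.41 to 0.51), and Tek had an intron with 0.84 ± 0.24. Erg, the ETS factor, had an intronic region (chr16:95463715-95464253) with ratios of 0.575, 1.07 and 0.525 against 1.38, 1.84 and 1.12 (1.05 ± 0.22, adjusted p = 0.00105), where Aged Sham 2 came close to Young Bleo 3. Of 39 regions of 13 tested ETS genes, 6 (15.4%) were stronger in Young Bleo, 3 of them at Elk3 (0.57, 0.68 and 0.87), and 1, the Gabpa promoter (-0.35 ± 0.12), in Aged Sham. Of 111 regions of SOX, GATA, MEF2, KLF and forkhead genes, 19 (17.1%) were stronger in Young Bleo and 9 (8.11%) in Aged Sham. Sox18, Foxp1 and Klf10 were among the former. Sox7, Gata2 and 2 Foxo3 regions were among the latter, while Klf4, a factor induced by flow, had its promoter stronger in Young Bleo (0.38 ± 0.11) and 2 regions far from its start stronger in Aged Sham. In the 64 identity regions, centring promoters and other regions separately left 5 Young Bleo and 2 Aged Sham calls, and centring on GC content 6 and 1. Over all 20690 tested regions these counts were 1371 and 1926, and 1670 and 2134. The ETS list kept 5 and 1, and 5 and 2. Without the division by list medians the Eng, Gabpa, Sox7 and Gata2 regions turned to 0.06, 0.25, 0.02 and 0.13, and Kdr stood at -1.07.

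Markers of both alveolar capillary cell types were called in both directions. Of 55 general capillary regions 8 (14.5%, against 9.14% of all tested) were stronger in Young Bleo and 4 (7.27%, against 11.7%) in Aged Sham. Cxcl12, the chemokine that binds CXCR4, had a promoter with ratios of 0.475, 0.75 and 0.55 in Aged Sham and 1.4, 1.3 and 1.27 in Young Bleo (1.19 ± 0.20, limma adjusted p = 9.27e-05), and a region in Kit, the stem cell factor receptor, differed by 1.04 ± 0.26. The promoter of Sema3c was stronger in Aged Sham, with ratios of 2.6, 2.09 and 3.4 against 1.43, 1.39 and 1.33 (-0.93 ± 0.15, adjusted p = 4.51e-05), and so was a region near Tmem100 (-0.86 ± 0.21). Of 42 aerocyte regions 8 (19%, against 11.7% of all tested) were stronger in Aged Sham, at 6 genes, and 5 (11.9%) in Young Bleo, at 3 genes, with a median of -0.20 (0.40 without the division by list medians, where all regions shift by 0.59). An intron of Kdr, the main VEGF receptor (chr5:75962004-75962712), had ratios of 0.75, 0.5 and 1.25 in Aged Sham and 0.2, 0.261 and 0.28 in Young Bleo (-1.67 ± 0.28, adjusted p = 6.56e-05). The region 77.4 kb from Chst1, a sulfotransferase gene (chr2:92678122-92678868), had ratios of 0.625, 0.679 and 1.07 against 0.267, 0.275 and 0.2 (-1.65 ± 0.26). Young Bleo 1 at Kdr and Young Bleo 3 at Chst1, both at 0.2, lay below the 1st percentile of the tested regions in their lists (0.233 and 0.227). Cyp4b1, a cytochrome P450, had 2 regions (-1.26 ± 0.21 and -0.95 ± 0.25), and regions at Rprml (-1.24 ± 0.25) and at Car4 (-0.50 ± 0.15), a carbonic anhydrase that marks aerocytes, moved the same way. The aerocyte genes stronger in Young Bleo were Prx and Nckap5, with 2 regions each, and Ednrb, the endothelin B receptor (0.92 ± 0.18). Without the division by list medians the Kdr (-1.07), Chst1 (-1.05) and first Cyp4b1 (-0.66) regions stayed called in Aged Sham. The Sema3c promoter (-0.33), Tmem100 (-0.26), Rprml (-0.65) and the second Cyp4b1 region (-0.35) lost their call, and Car4 turned to 0.10. Peak strength in sorted bulk cells does not separate a change within a cell type from a change in the shares of general capillary cells, aerocytes and arterial cells.

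**Figure D3:**
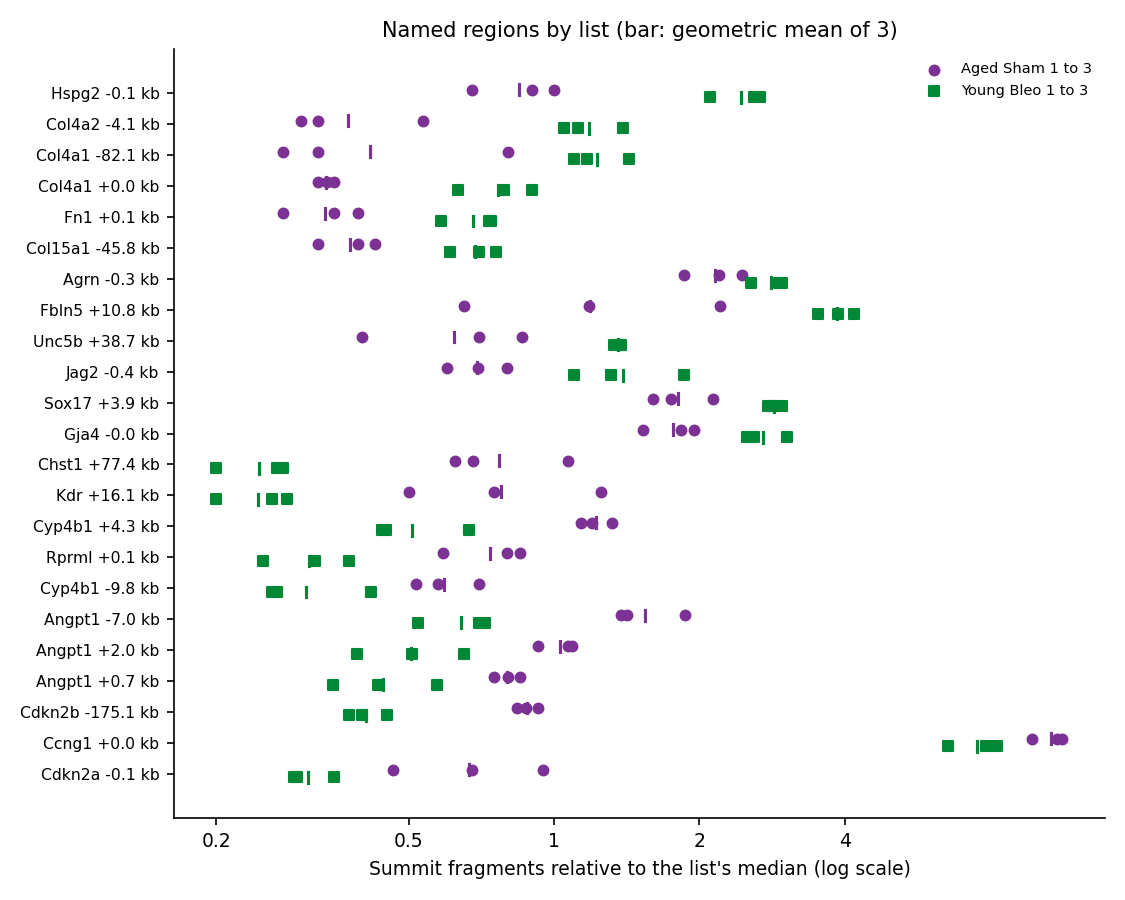
Summit fragments relative to the median tested region of each list (horizontal axis, log scale) at 23 named regions, labelled by the nearest gene and the distance from its start, with 1 point for each of the 6 mice and a bar for the geometric mean of each group. Regions of the basement membrane and arterial lists are at the top with the Young Bleo squares to the right, and the aerocyte, Angpt1 and cell-cycle inhibitor regions are below with the Aged Sham circles to the right, and no region shown overlapped between the groups.

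Signalling genes were called in both directions. Over all tested regions the shares were 9.14% in Young Bleo and 11.7% in Aged Sham. In VEGF and angiopoietin signalling, 5 of 52 regions (9.62%) were stronger in Young Bleo and 6 (11.5%) in Aged Sham, close to those shares. Angpt1, the agonist of the TEK receptor, had 3 regions stronger in Aged Sham (-1.27 ± 0.19, -1.02 ± 0.22 and -0.86 ± 0.23), and at the first the ratios were 1.87, 1.38 and 1.42 in Aged Sham and 0.7, 0.522 and 0.72 in Young Bleo. The promoter of Angpt2, the context-dependent antagonist, was also stronger in Aged Sham (-0.81 ± 0.25). Of 50 Notch pathway regions 7 (14%) were stronger in Young Bleo, among them 3 of the target gene Hes1 (0.37, 0.45 and 0.50) and an intron of Notch1 (0.55 ± 0.16), and 4 (8%) in Aged Sham, among them the Notch2 promoter (-0.43 ± 0.12). Of 65 BMP and TGF-beta regions 8 (12.3%) were stronger in Young Bleo and 7 (10.8%) in Aged Sham. Bmp2, a BMP ligand, had a promoter (chr2:133551993-133552525) with 16, 11 and 9 fragments in Aged Sham and 58, 70 and 80 in Young Bleo. The ratios were 0.4, 0.196 and 0.225 against 0.967, 1.01 and 1.07 (1.96 ± 0.25, limma adjusted p = 1.88e-06). In Aged Sham 2 and 3 they lay at or below the 1st percentile of the tested regions (0.196 and 0.250), so the size of this difference is uncertain. The promoters of the receptors Bmpr1a (-1.03 ± 0.23) and Tgfbr1 (-0.44 ± 0.12) were stronger in Aged Sham. In FGF and PDGF signalling, 7 of 44 regions (15.9%) were stronger in Young Bleo, among them 2 of Spry4, a feedback inhibitor (1.83 ± 0.21 and 0.64 ± 0.14), and 3 of the phosphatase gene Dusp6, and 6 (13.6%) in Aged Sham, among them a region near Dusp10 (-1.87 ± 0.25). In the Wnt pathway 5 of 38 (13.2%) were called in each direction, with 3 regions of the ligand gene Wnt7b in Young Bleo and the receptor gene Lrp5 (-1.41 ± 0.25) in Aged Sham. Without the division by list medians the first Angpt1 region (-0.67) and those of Dusp10 (-1.27) and Lrp5 (-0.81) stayed called. The other Angpt1 regions (-0.43 and -0.26) and the promoters of Angpt2 (-0.21) and Bmpr1a (-0.44) lost their call, and Notch2 and Tgfbr1 turned to 0.17 and 0.16.

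The promoter of the cell-cycle inhibitor gene Cdkn2a and a pair of distant regions nearest to Cdkn2b were stronger in Aged Sham relative to the list medians. Of 28 tested regions of 16 senescence and p53 genes, 6 (21.4%, against 11.7% of all tested) were stronger in Aged Sham. In Young Bleo 2 (7.14%, against 9.14%) were stronger. The promoter of Cdkn2a (chr4:89282019-89282504), which encodes p16 and p19ARF, had 27, 26 and 38 fragments in Aged Sham and 21, 20 and 22 in Young Bleo. The ratios were 0.675, 0.464 and 0.95 against 0.35, 0.29 and 0.293 (-1.11 ± 0.26, limma adjusted p = 0.00243), so the groups were apart after division by the list median, while the fragments themselves differed little. A pair of regions nearest to Cdkn2b (p15), 175 and 134 kb from its start and within the noncoding gene Gm12610, had differences of -1.11 ± 0.22 and -0.97 ± 0.25. The p53 targets Ccng1 (-0.51 ± 0.11) and Sesn1 (-0.43 ± 0.11) had promoters stronger in Aged Sham, and so was an intron of Trp53 itself (-0.59 ± 0.16). The 2 regions stronger in Young Bleo lay upstream of Pmaip1 (0.79 ± 0.22, with overlapping groups) and Gdf15 (0.54 ± 0.19), which are p53 targets too. Of 49 cell-cycle regions 5 (10.2%, close to the 9.14% of all tested) were stronger in Young Bleo and 2 (4.08%, against 11.7%) in Aged Sham. The former included an intron of Cdk6 (1.43 ± 0.25) and the Cdk4 promoter (0.48 ± 0.11). In the 28 senescence and p53 regions, centring on GC content left 0 calls in Young Bleo and 6 in Aged Sham. Centring promoters and other regions separately left 0 and 5. Leaving out the division by list medians shifts all regions towards Young Bleo. None of the 6 regions stronger in Aged Sham was then called, and the Pmaip1 and Gdf15 regions stayed called. The Cdkn2a promoter stood at -0.51 (adjusted p = 0.144), the pair at Cdkn2b at -0.51 and -0.37, and the Ccng1 and Sesn1 promoters and the Trp53 intron turned to 0.09, 0.17 and 0.01.

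Interferon and adhesion genes had shares of calls close to those of all regions. Of 30 tested regions of interferon-stimulated genes 4 (13.3%) were stronger in Aged Sham, among them the promoters or starts of Ifih1 (-0.73 ± 0.14), Mx2 (-0.49 ± 0.14) and Usp18 (-0.42 ± 0.13), and 2 (6.67%) in Young Bleo, among them an intron of Ifit2 (0.93 ± 0.20). Without the division by list medians Ifih1 stood at -0.14, and Mx2 and Usp18 turned to 0.11 and 0.18. Of 40 regions of adhesion, complement and NF-kB genes 4 (10%) were stronger in Young Bleo, at Hif1a (1.28 ± 0.23), Relb and Nfkbia, and 3 (7.5%) in Aged Sham. The Icam1 promoter, of a leukocyte adhesion molecule, had ratios of 1, 0.857 and 1.6 in Aged Sham and 0.45, 0.493 and 0.56 in Young Bleo (-1.16 ± 0.23, limma adjusted p = 0.00046, and -0.56 without the division by list medians). Injury-activated endothelium had 2 of 31 regions (6.45%) stronger in Young Bleo and 4 (12.9%) in Aged Sham. AP-1 and ATF genes had 5 of 45 (11.1%) and 3 (6.67%). Cytoskeleton genes had 5 of 46 regions (10.9%, against 9.14% of all tested) stronger in Young Bleo. None was stronger in Aged Sham, against 11.7% of all tested regions. Among 21 lipid uptake regions 4 (19%) were stronger in Young Bleo, at Pparg (0.99 ± 0.25), Cd36, Tcf15 and Scarb1, and 1 in Aged Sham. Markers of other cell types gave few tested regions, with 4 leukocyte regions and 6 lymphatic regions of which 0 were called, 9 epithelial and 7 fibroblast or mural regions with 1 call in each direction, and no mesothelial region. The 36 genes that the study sets beside its ATAC-seq data had 92 tested regions, 17 (18.5%) stronger in Young Bleo and 9 (9.78%) in Aged Sham. This is no independent evidence, because they were chosen on these samples. Hspg2, Col4a1, Bmp2, Notch1, Tek, Kit and Kdr are among them and also belong to lists above.

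**Figure D4:**
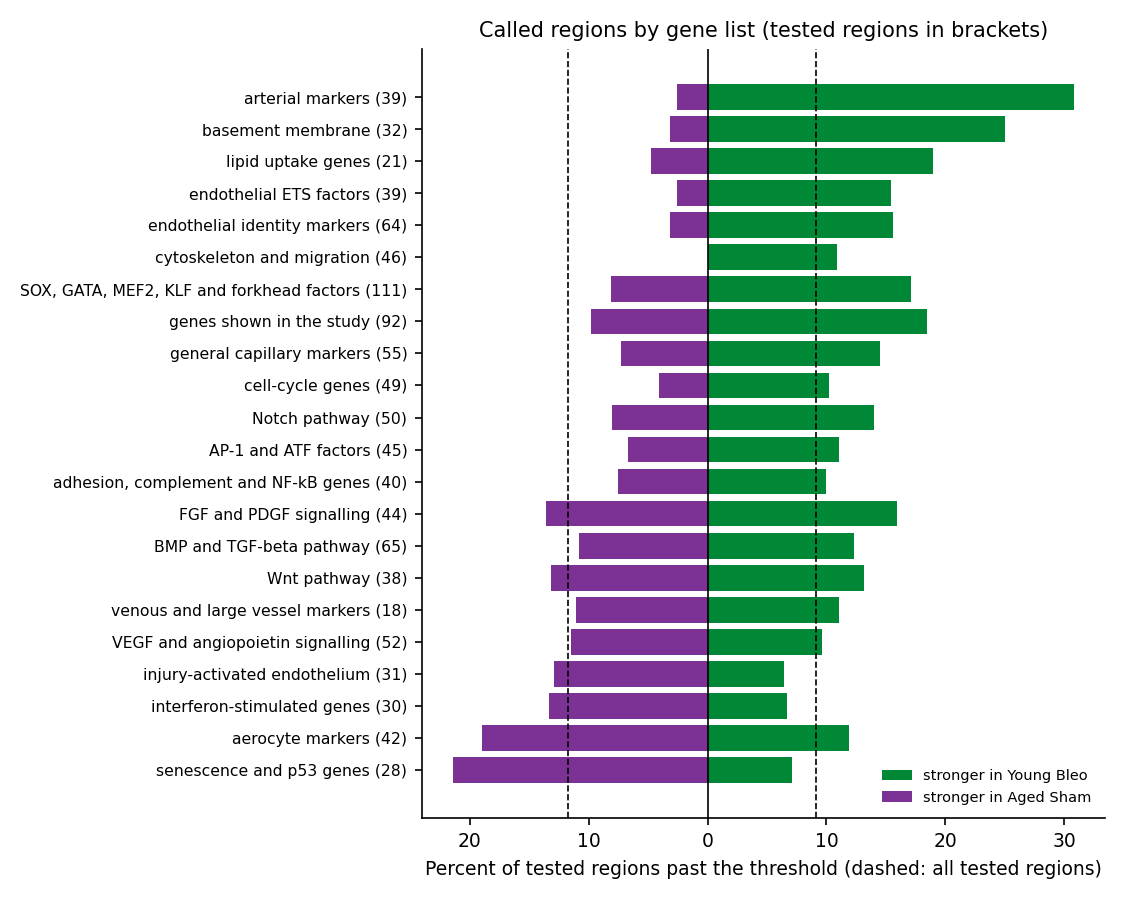
Percent of tested regions that were stronger in Young Bleo (green, to the right) or in Aged Sham (purple, to the left) for 22 gene lists, with the number of tested regions in brackets and dashed lines at the 9.14% and 11.7% of all tested regions. Arterial and basement membrane genes reach 30.8% and 25% to the right, and senescence and aerocyte genes reach 21.4% and 19% to the left.

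Motif letters were counted in the 200 bases at the summit, outside promoters, where 37257 of all regions lie. ACAATGG, the SOX letters, was present in 12.9% of the 1433 regions stronger in Young Bleo and in 3.21% of the 1120 stronger in Aged Sham, against 6.70% of all. TGTTTAC, the forkhead letters, was present in 3.77% and 9.20% (5.16% of all), and AGATAAG, the GATA letters, in 3.42% and 6.88% (4.03% of all). The separated regions at equal peak number gave 14.2% and 3.04% for SOX, 4.28% and 10.8% for forkhead and 3.42% and 10.5% for GATA. The regions separated with all peaks, 149 of them in Aged Sham, gave 9.91% and 7.38% for SOX, 3.31% and 14.1% for forkhead and 2.91% and 7.38% for GATA. These 3 motifs thus had the same order in all 3 selections, which use the same lists and are not independent. In the last selection the SOX share in Aged Sham lay above the 6.70% of all regions and not below it. CAGGAAG, the ETS letters, was present in 23.2% of the regions stronger in Young Bleo and 24.1% of those stronger in Aged Sham (22.6% of all). The separated regions gave 24.8% and 31.4% at equal peak number and 21.2% and 24.2% with all peaks. AP-1 was present in 10.8% and 9.55% (10.2% of all), TEAD in 3.42% and 3.84% (3.41%), KLF in 5.37% and 3.75% (3.81%), NF-kB in 2.30% and 1.70% (1.5%) and CTCF in 7.47% and 6.07% (8.33%). Matches to different motifs may overlap, and no test was run on these shares.

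The remaining 12 lists were not used to call a region stronger in either group, although their peaks helped to define the regions. Aged Sham 4 and Young Bleo 4 have different lane codes. Of the regions stronger in Young Bleo 1 to 3, Young Bleo 4 was above Aged Sham 4 in 72.6% (median difference 0.17), of those stronger in Aged Sham 1 to 3 in 39.1% (-0.06), and of all tested in 54.7% (0.03). Both medians had the direction of the first 6 lists, and both were below the median sizes of 0.71 and 0.60 found there. Single named regions varied in fragments of Aged Sham 4 and Young Bleo 4. These were 69 and 109 at A930006I01Rik, 96 and 267 at Peg3, 18 and 49 at the Bmp2 promoter and 133 and 62 at Ikzf2. Others stood close together, with 97 and 102 at the second Egln3 intron, 56 and 52 at Erg, 25 and 25 at the Kdr intron and 222 and 228 at Akr1e1. In the 17432 regions with a peak in all 18 lists, those stronger in Young Bleo lay at 0.16 in Young Bleo 4 and at -0.00 in Aged Sham 4, as median log2 from the mean of the 6 compared lists. They lay at -0.15 to -0.06 in the 5 Young Sham lists, and at 0.32, 0.32, 0.08, 0.00 and 0.08 in Aged Bleo 1 to 5. Regions stronger in Aged Sham lay at 0.02 in Aged Sham 4, at -0.04 in Young Bleo 4, at -0.01 to 0.16 in Young Sham and at -0.36, -0.43, 0.02, 0.17 and -0.02 in Aged Bleo 1 to 5. Aged Bleo 1 and 2 therefore stood with Young Bleo 1 to 3 in both sets, and Aged Bleo 3 to 5 did not. Aged Bleo 1 and 2 held 37595 and 40883 peaks, against 29049, 21050 and 26886 in Aged Bleo 3 to 5. The part of peak number in this was not tested. The Young Sham lists stood on the Aged Sham side for the regions stronger in Young Bleo. Within lane code 8, Young Bleo 4 was above all 5 Young Sham lists in the regions stronger in Young Bleo (0.16 against -0.15 to -0.06) and below them in those stronger in Aged Sham (-0.04 against -0.01 to 0.16). Within lane code 6, Aged Sham 4 stood at -0.00 against 0.00 to 0.32 in Aged Bleo, and at 0.02 against -0.43 to 0.17. With 1 list on one side of each, these differences were not tested.

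**Figure D5:**
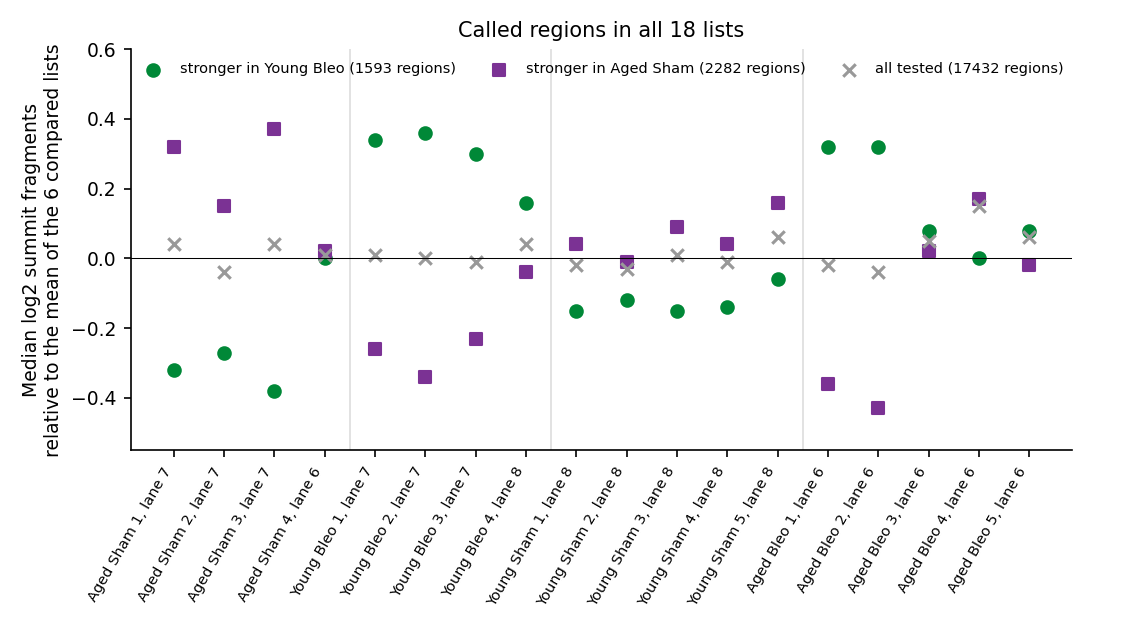
Median strength of the called regions in each of the 18 lists (vertical axis, log2 relative to the mean of the 6 compared lists), for the 1593 regions stronger in Young Bleo (green circles), the 2282 stronger in Aged Sham (purple squares) and all 17432 regions with a peak in every list (grey crosses). The 6 lists of lane code 7 chose the regions and are apart by construction. Of the other 12 lists, Aged Bleo 1 and 2 have green circles at 0.32 and purple squares at -0.36 and -0.43. Aged Bleo 3 to 5 have circles at 0.08, 0.00 and 0.08 and squares at 0.02, 0.17 and -0.02.

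Presence of peaks at equal number was also counted in the other lists. Of the 610 regions separated in Young Bleo, 56.9% had a peak in Young Bleo 4 and 36.1% in Aged Sham 4, while 22% to 25.6% had one in the 5 Young Sham lists and 73.6%, 69.0%, 30.2%, 19.8% and 25.1% in Aged Bleo 1 to 5. Over all regions 43.0% to 44.2% had a peak in any list. Of the 501 regions separated in Aged Sham, 63.7% had a peak in Aged Sham 4, 35.9% in Young Bleo 4, 64.7% to 71.9% in Young Sham and 22%, 26.1%, 63.3%, 63.7% and 58.5% in Aged Bleo 1 to 5. Young Sham lists thus had a peak in the regions separated in Aged Sham more often than in those separated in Young Bleo, in 5 of 5 lists.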

How the data were processed

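Omni-ATAC-seq peak lists of sorted mouse lung ECs were used, 1 list per mouse. Per the study's methods, the authors aligned reads with BWA to mm10, kept pairs with at least 1 uniquely mapping end, removed duplicates and called peaks with MACS2 at an FDR of 1%. The deposited columns hold a fold enrichment (a linear ratio) at the summit, its -log10 p and -log10 q, and an integer score that MACS2 derives from the q-value. The score was not used. Read counts were not analysed here, and the study's own test, which needs them, was not repeated.

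Groups came from the sample labels and the lane code from the list names. Whether the code stands for 1 flow-cell lane is not given in the sources used here. Each list is a separate mouse. Nuclear peaks (chromosomes 1 to 19, X and Y) of all 18 lists were merged when they overlapped, and 47338 regions with a peak in at least 2 lists were kept. Presence was compared with all peaks and with the 21050 peaks of highest -log10 p per list. Summit fragments were solved from fold enrichment and -log10 p and came out whole within 0.01 in 100% of the peaks with a -log10 p up to 250. Their log2 values, centred on the list median, were tested in regions with a peak in all 6 lists with limma 3.58.1 (trend, Benjamini-Hochberg, threshold 0.05) in R 4.3.3, on the 6 compared lists alone. Group values were compared with two-sided exact permutation tests. The scripts were tested on simulated data.

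Regions were assigned to the nearest RefSeq transcript start in mm10 coordinates, and promoters reached from 1000 bases upstream to 100 bases downstream. Nearest does not mean regulated. Named were the 10 leading regions by p for either group, all called regions of the 27 gene lists and, among separated regions, the 10 highest ranks and those of listed genes, of which the report gives a selection. The comparison, its members and the gene lists were chosen with earlier results of these data known. Tables used Python 3.11.15, numpy 2.4.6, pandas 2.3.3 and scipy 1.17.1.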

Additional observations from a re-analysis of the deposited data

How the results depend on the processing

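Background coverage was lower in the Aged Sham lists, no read totals were used, and the part of depth in the results was not tested. With peaks required to cover 50% of a region, 919 regions were separated in Young Bleo at equal number. Strength calls in Young Bleo and Aged Sham were 137 and 31 with the deposited fold enrichment, also not centred, 10984 and 93 with fragments without centring, 6045 and 309 with percentiles, and 1322 and 1432 with all 18 lists in the fit. The 6 lists alone gave 1657 and 2365 in the same 17432 regions. The causes were not tested. Leaving out 1 list gave 954 (without Young Bleo 2) to 2331 (without Aged Sham 2) calls in Young Bleo and 1374 to 3437 (the same lists) in Aged Sham. Separated regions ranged from 3435 to 5662 in Young Bleo and 186 to 346 in Aged Sham with all peaks, and from 781 to 1049 and 646 to 889 at equal number. The groups still differed in the same direction in peaks (8421 to 11635), covered length (3.89 to 5.16 Mb), background coverage (0.520 to 0.612) and similarity (0.0517 to 0.0848).

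With the replicate block, calls were 2061 and 2669, and all 130 named regions with a log2 size of at least 0.65 or a leading p kept their call. The numbers do not pair the mice, since same-numbered lists deviated together with correlations of 0.01, 0.11 and 0.08. Over 2159 comparisons of those 130 regions with an alternative, 1786 kept the call, 369 lost it and 4 reversed: the Gm8579 region (chr6:3201203-3201678) at -0.00 and the Emp2 promoter at 1.14 percentile points, and a region upstream of Icam1 at 6.75 percentile points and, with uncentred fold enrichment, at 0.05. Of the 130, 14 kept their call with uncentred fold enrichment, 47 with percentiles and 96 with uncentred fragments. Centring by GC content or by promoter status and removal of repeated sequence were chosen after seeing the data.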
